A study of Mus musculus with 6 samples.

Results

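These data describe how J1 mouse embryonic stem cells that carry a scramble short hairpin RNA (shRNA) responded to retinoic acid (RA). The response was read from 2 RNA sequencing libraries of that line, 1 from cells given 1 µM RA and 1 from cells given the ethanol vehicle, both after 48 h. A gene was kept where the mean of these 2 libraries reached 1 FPKM (reads per length of transcript and size of library), which held for 11263 of the 20460 genes in the table. The study asks what the arginine methyltransferase CARM1 contributes to RA-driven differentiation, and it also holds a line whose shRNA targets Carm1 and an unmodified wild-type line, both with 1 RA and 1 vehicle library. All 6 libraries came from J1 cells of strain 129S4/SvJae, cultured on gelatin with the cytokine LIF, which sustains the undifferentiated state, and the labels give no removal of LIF with RA. The scramble hairpin targets no intended gene and serves as the control for the Carm1 shRNA. Each shRNA was represented by 1 line, and the sources used here do not say whether that line was 1 clone. With 1 library per line and treatment there is no replicate error within the scramble line, so its response is given by size and without a p-value.

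RA is the active form of vitamin A. It binds retinoic acid receptors (RARs), which sit on DNA as heterodimers with retinoid X receptors (RXRs) and switch nearby genes when the ligand arrives. In embryonic stem cells RA is a classical differentiation signal: it is known to shut down the pluripotency network, to open the Hox clusters in their chromosomal order and to induce the enzymes that degrade RA itself.

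In the scramble line Carm1 (mm9 chromosome 9, bases 21351338 to 21393909) stood at 29.9 FPKM with RA and 36.1 FPKM with vehicle. Its wild-type values were 29.5 and 37.0 FPKM, and the Carm1 shRNA line had 6.73 and 8.49 FPKM. The scramble values thus lay within 1 FPKM of the wild-type ones. Carm1 fell by 0.29 ± 0.06 (SE) log2 units with RA over the 3 lines (limma, adjusted p = 0.01003), though leaving out the scramble line gave an adjusted p of 0.0501 and leaving out the Carm1 shRNA line 0.0546. The step between the lowest FPKM values put the depth near 33.9 M reads (M, 1e6) in the scramble RA library and 25.7 M in its vehicle library, against 30.9 to 33.9 M in the other 4. The 10 markers of undifferentiated embryonic stem cells each reached at least 1 FPKM in every library, and in the scramble line they summed to 2861 FPKM with RA and 5683 FPKM with vehicle. Of the Y-linked genes, Eif2s3y stood at 1.40 and 1.67 FPKM in the scramble RA and vehicle libraries, against 35.8 and 38.0 FPKM in the wild-type ones, and 0.132 and 0.164 FPKM in those of the Carm1 shRNA line, and Uty was listed at 0 in both scramble libraries. The lines therefore differed in their Y-linked RNA under either treatment.

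RA changed the scramble line mostly upward as the values were deposited. On the scale log2(FPKM + 1), 1326 genes (11.8% of those kept) stood at least 2-fold higher with RA and 211 (1.87%) at least 2-fold lower. At least 4-fold differences numbered 265 higher and 27 lower, 8-fold ones 66 and 2, and 16-fold ones 22 and 1. The median gene was 0.19 log2 units higher with RA, and 7187 of the 11263 genes lay above 0. In bulk libraries, a change in every cell and a change in the number of cells that hold an RNA cannot be told apart. As deposited, 86.3% of the 2-fold differences were higher. Median-of-ratios scaling moved the median gene to -0.09 and left 852 higher and 481 lower genes (63.9% higher). Quantile normalization moved it to -0.05 and left 661 and 440 (60.04% higher).

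**Figure D1:**
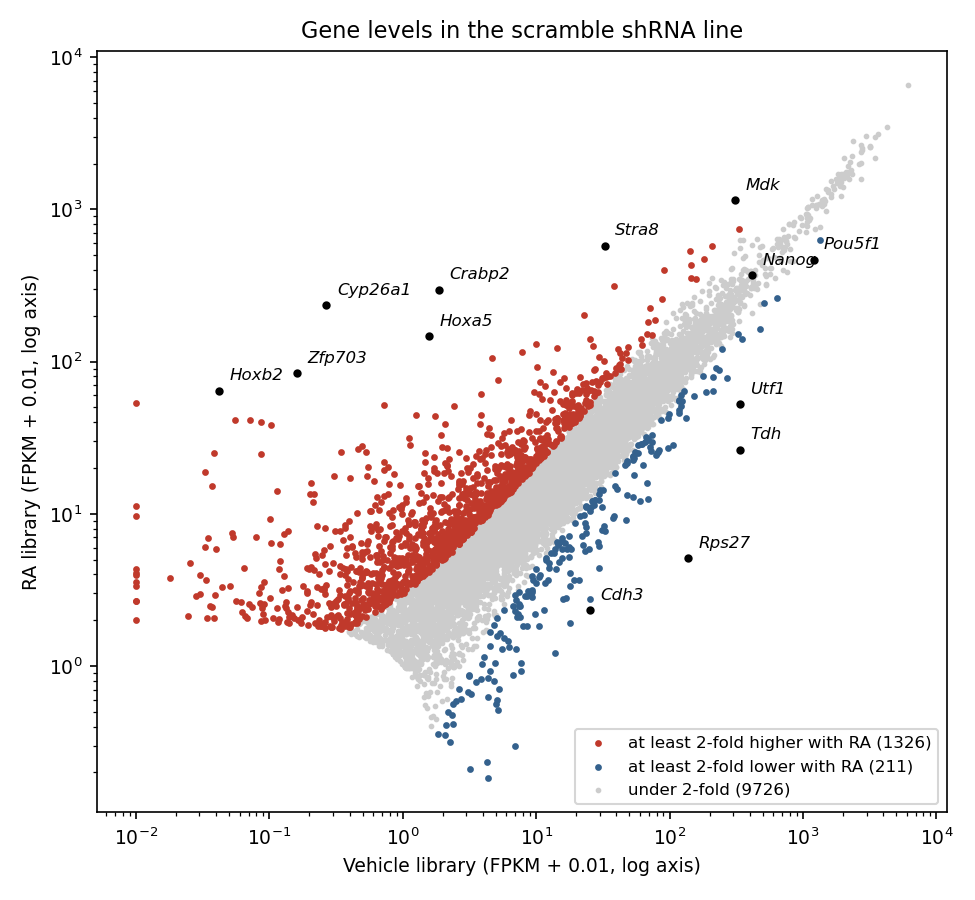
FPKM of each gene kept in the RA library (vertical, log axis) against the vehicle library (horizontal, log axis) of the scramble line, with 0.01 added for display. Red points are the 1326 genes at least 2-fold higher with RA on the log2(FPKM + 1) scale, blue points the 211 at least 2-fold lower, and the widest gaps lie at the left, among genes near 0 with vehicle.

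The same direction was tested across the lines, with each line as a block (limma on log2(FPKM + 1), 2 residual degrees of freedom, Benjamini-Hochberg adjusted p under 0.05 over 11227 genes). In that fit 4816 genes (42.9%) rose and 2325 (20.7%) fell, and "rose" and "fell" below refer to it. Median-of-ratios scaling turned this split to 3170 and 4256, and quantile normalization to 2992 and 3847. Among the scramble line's 2-fold genes, 1266 of 1275 tested higher ones rose and 209 of 210 lower ones fell. That fit includes the scramble libraries by which these genes were picked. In a fit that left the scramble libraries out, 1232 of the 1275 rose (96.6%, against 30.3% of all genes) and 203 of the 210 fell (96.7%, against 12.4%). A gene near 0 with vehicle could be kept only through its RA level and so had to be higher, so counts of higher genes among those kept are descriptions.

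The genes were also placed by their level in the wild-type vehicle library, which the scramble difference does not use. The median scramble response was 0.41 log2 units for genes at 1 to 10 FPKM in that library (4469 genes), 0.04 at 10 to 100 FPKM (5212 genes) and -0.24 above 100 FPKM (879 genes). No median is read from genes under 1 FPKM there, since most of them passed the filter through their RA level, which sets their direction. The 2-fold higher genes held 5.71% of all FPKM with RA and 1.57% with vehicle. Within the scramble line, 692 genes stood at or above 1 FPKM with RA and below it with vehicle, and 98 the other way round.

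The strongest rise was that of Cyp26a1, the enzyme that clears RA: 235 FPKM with RA and 0.258 FPKM with vehicle, which correspond to about 14266 and 12 reads. Crabp2, which carries RA to its receptors, stood at 297 and 1.86 FPKM, a ratio of 159. Zfp703, a transcriptional repressor, stood at 84.2 and 0.151 FPKM, and Stra6, the membrane receptor for retinol uptake, at 41.4 and 0.0456 FPKM. These genes had log2 differences of 7.55, 6.70, 6.21 and 5.34. Of the 15 genes with the largest differences, 7 were Hox genes (Hoxb2, Hoxa5, Hoxb1, Hoxb8, Hoxb6, Hoxb5 and Hoxa3). The remaining ones were Crygc, a lens crystallin (38.5 and 0.0925 FPKM), Pmp22, a myelin protein (52.0 and 0.715 FPKM), Igfbp5, a binding protein of insulin-like growth factors (24.97 and 0.0284 FPKM), and Tinagl1, a matrix glycoprotein (25.6 and 0.335 FPKM). Each of the 15 rose over the 3 lines, with limma adjusted p between 0.000134 and 0.00106. The 15 were picked by scramble values that this fit also uses, so these p-values are no independent test.

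At the other end, Tdh, the threonine dehydrogenase on which mouse embryonic stem cells depend, stood at 26.4 FPKM with RA and 338 FPKM with vehicle. Cdh3, P-cadherin, stood at 2.32 and 25.1 FPKM, and Foxd3, a forkhead factor of the pluripotent and neural crest state, at 2.75 and 25.5 FPKM. Utf1, a chromatin factor of undifferentiated cells, stood at 52.6 and 336 FPKM. Among the 15 lowest genes were also Pou4f2, a POU-domain factor of retinal ganglion cells (1.90 and 18.01 FPKM), Slc7a3, a transporter of cationic amino acids (12.5 and 68.9 FPKM), Pdk1, a kinase that inhibits pyruvate dehydrogenase (12.1 and 59.99 FPKM), and Chrna9, a subunit of the nicotinic acetylcholine receptor (0.289 and 6.92 FPKM). Enox1, Pdzd4, Tcea3, N4bp3 and Sfn had log2 differences from -2.76 to -2.22. These 13 genes fell over the 3 lines, in a fit that also uses the scramble values by which they were picked.

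The lowest gene of all did not share its direction with the wild-type line. Rps27, a protein of the small ribosomal subunit, stood at 5.08 FPKM with RA and 137 FPKM with vehicle in the scramble line. It stood at 3.89 and 5.99 FPKM in the Carm1 shRNA line and at 80.02 and 5.91 FPKM in the wild-type line. High values thus appeared in 1 library of each of 2 lines, under opposite treatments. The 3-line fit gave it -0.49 ± 1.44 (SE, adjusted p = 0.779), and -2.51 (adjusted p = 0.0453) without the wild-type line. Its mRNA has near-identical copies in the genome, and how the authors' counting shared reads among them is not given, so its level is uncertain.

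**Figure D2:**
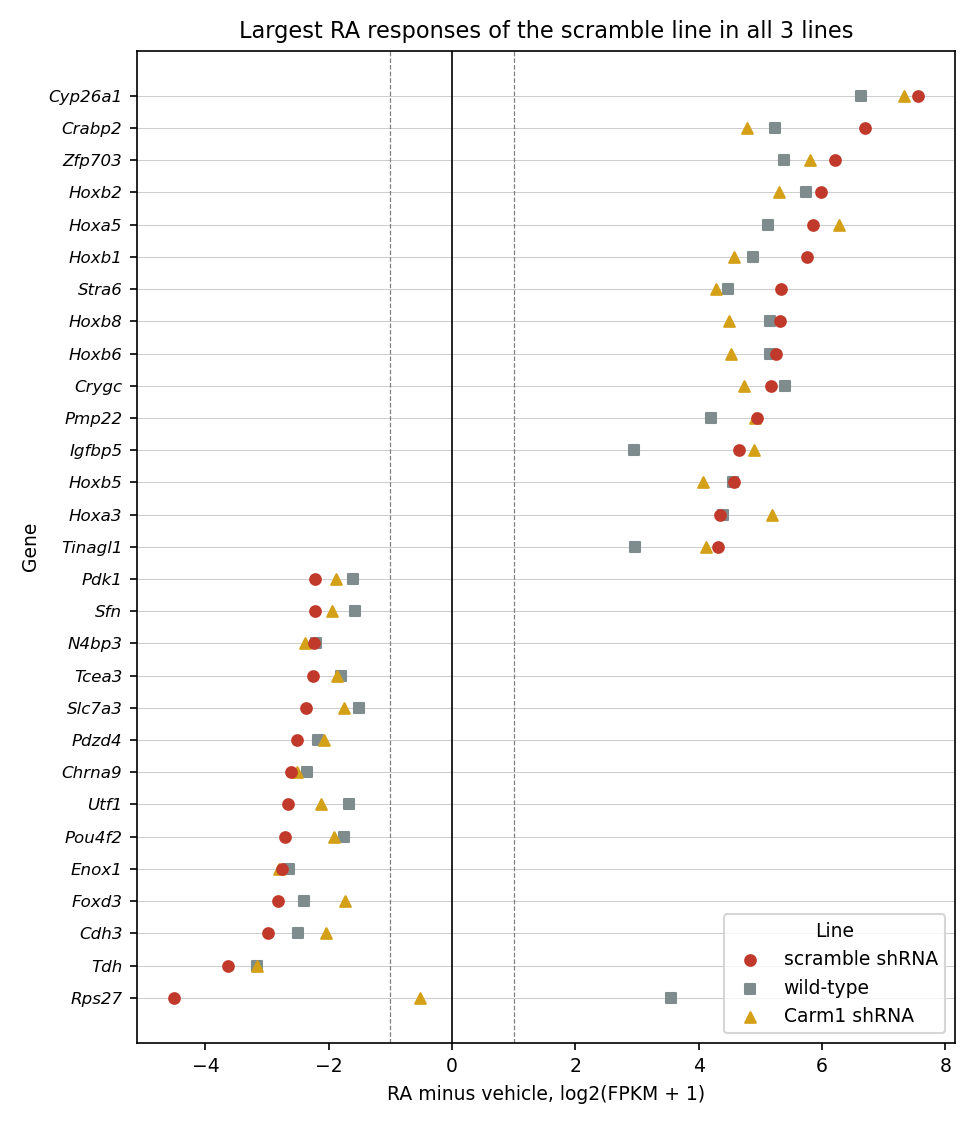
RA minus vehicle in log2(FPKM + 1) for the 15 genes with the largest positive and 14 of the 15 with the largest negative difference in the scramble line, with 1 point per line and dashed lines at 2-fold. All 3 lines lie on the same side of 0 for every gene except Rps27, whose wild-type point lies at 3.55 and scramble point at -4.51.

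Among genes of retinoid handling the response was mixed, with Cyp26a1 and Crabp2 far higher and many other members not. Of 18 listed retinoid enzymes, 11 were kept, 4 stood at least 2-fold higher and none at least 2-fold lower, beside 11.8% and 1.87% of all genes kept. Of the 11, 8 rose over the lines, beside 42.9% of all genes tested that rose and 20.7% that fell. These shares over all genes stand beside every list below. The 4 higher enzymes were the 3 RA hydroxylases and the reductase Dhrs3. Cyp26b1 stood at 15.2 FPKM with RA and 0.0272 FPKM with vehicle, and Cyp26c1 at 2.53 and 0.0807 FPKM. Dhrs3, which returns retinaldehyde to retinol, stood at 61.5 and 3.84 FPKM. The known functions of these 4 enzymes all lower the amount of RA. The retinol dehydrogenase Rdh10, which works in the direction of RA synthesis, differed by 0.58 (4.82 and 2.89 FPKM). The RA-synthesising Aldh1a1, Aldh1a2 and Aldh1a3 stayed at or under 0.517 FPKM in both scramble libraries. Lrat, which stores retinol as esters, stood at 0.641 and 0.0139 FPKM and was not kept.

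Of 8 binding and uptake genes, 7 were kept and 4 stood at least 2-fold higher. Beside Crabp2 and Stra6 these included Rbp4, the carrier of retinol in blood (4.43 and 1.37 FPKM). Crabp1, the other cellular RA carrier, went the opposite way, with 10.8 FPKM under RA and 17.8 FPKM under vehicle, and fell over the lines (adjusted p = 0.00746). Among the receptors Rarb stood apart, at 17.8 FPKM with RA and 0.533 FPKM with vehicle (log2 difference 3.62). Rara stood at 25.6 and 27.4 FPKM, Rarg at 55.6 and 79.3 FPKM, Rxra at 6.40 and 4.32 FPKM, and Rxrb at 24.7 and 26.5 FPKM. Rarg fell and Rxra rose over the lines (adjusted p = 0.0171 and 0.0193), while Rxrg was not kept.

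RAR and RXR pairs are known to bind direct repeats of a hexamer spaced by 1, 2 or 5 bases (DR1, DR2 and DR5). The repeats were searched on both strands for any pair of 4 half-sites, namely AGGTCA, the variant AGTTCA, the variant GGGTCA and the variant GGTTCA, from 250 bases before to 50 after each RefSeq gene start (build GRCm38.p6). A DR5 was found in 0.0974% of 32851 promoters. Of 8528 kept genes with a promoter in that table, 4 held a DR5, and 2 of these were among the 979 genes at least 2-fold higher, namely Cyp26a1 and Rarb. A DR2 stood in 0.268% of the promoters and in 10 kept genes, 4 of them 2-fold higher, Tinagl1 among them. Among the 147 genes at least 2-fold lower, 1 held a DR2, Slc7a7 (22.3 FPKM with RA, 48.1 with vehicle). A DR1 stood in 0.222% of the promoters and in 24 kept genes, of which 2 were 2-fold higher and none 2-fold lower. The 250 bases before the starts of Cyp26a1, Rarb and Tinagl1 follow, 5′ to 3′ on the gene's strand, with the repeat in capitals. They are shown as the promoters of strongly responding genes that hold a repeat. The Cyp26a1 repeat reads on the opposite strand. The windows are chr19:37697558-37697807 (plus strand) for Cyp26a1, with the repeat at -32 to -16, chr14:16575477-16575726 (minus strand) for Rarb, at -53 to -37, and chr4:130175123-130175372 (minus strand) for Tinagl1, at -107 to -94.
Cyp26a1: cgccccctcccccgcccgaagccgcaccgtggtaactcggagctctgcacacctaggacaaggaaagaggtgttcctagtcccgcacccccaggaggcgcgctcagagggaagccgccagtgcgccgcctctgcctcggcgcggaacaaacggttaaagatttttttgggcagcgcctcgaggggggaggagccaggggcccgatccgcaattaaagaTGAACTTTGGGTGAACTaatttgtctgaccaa
Rarb: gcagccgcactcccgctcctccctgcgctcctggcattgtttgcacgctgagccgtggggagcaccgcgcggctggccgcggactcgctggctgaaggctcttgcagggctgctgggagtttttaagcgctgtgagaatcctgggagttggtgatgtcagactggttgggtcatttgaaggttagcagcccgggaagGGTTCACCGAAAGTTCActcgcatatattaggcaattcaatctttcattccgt
Tinagl1: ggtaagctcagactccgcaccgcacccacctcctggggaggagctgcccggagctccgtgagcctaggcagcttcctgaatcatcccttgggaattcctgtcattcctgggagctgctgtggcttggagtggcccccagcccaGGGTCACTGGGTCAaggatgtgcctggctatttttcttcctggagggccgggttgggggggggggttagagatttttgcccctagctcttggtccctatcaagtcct
A match of letters is a description of the window only. Stra6, Hoxb1 and Hoxa5, which also had large differences, held none of these repeats in their windows, from which nothing follows about the receptors.

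Further genes known as direct RA targets moved with them. Of 15 in the table, 11 were kept, 9 stood at least 2-fold higher and 1 at least 2-fold lower. Several of the higher ones, namely Cdx1, Foxa1, Meis1, Meis2, Nrip1 and Stra8, are counted again in lists below. The counts of these lists are therefore not independent. Stra8, the gatekeeper of meiosis, reached 579.7 FPKM with RA and stood at 32.8 FPKM with vehicle. Tshz1, a zinc-finger factor, stood at 26.7 and 0.451 FPKM, and Nrip1, a corepressor of nuclear receptors, at 26.9 and 2.15 FPKM. Tgm2, tissue transglutaminase, stood at 11.3 and 3.68 FPKM. The member at least 2-fold lower was the immediate early gene Egr1, at 2.07 and 7.53 FPKM.

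Hox genes set position along the body axis, and RA is known to act on them from the 3′ end of each cluster. In the scramble line 9 of the 11 Hoxa genes, 10 of 10 Hoxb genes and 4 of 9 Hoxc genes were kept, and these 23 stood at least 2-fold higher with RA, while none of the 9 Hoxd genes was kept (highest value 0.860 FPKM). Hoxa11 and Hoxa13 (up to 0.180 FPKM) and 5 Hoxc genes (up to 0.840 FPKM) were not kept either. Those of the 23 below 1 FPKM with vehicle could be kept only through their RA level. The filter thus set their direction and, for genes near 0 with vehicle, the 2-fold call as well. The median differences were 2.94 for Hoxa, 4.204 for Hoxb and 1.99 for Hoxc. Hoxa3 stood at 44.6 FPKM with RA and 1.24 FPKM with vehicle, Hoxa4 at 43.9 and 1.74, and Hoxa5 at 147 and 1.57 FPKM. Levels did not fall evenly along the cluster, since Hoxa2 near the 3′ end stood at 8.04 and 0.251 FPKM, Hoxa6 at 4.34 FPKM and a listed 0, and Hoxa7 at 11.9 and 0.682 FPKM. Toward the 5′ end Hoxa9 stood at 3.68 and 0.0235 FPKM, Hoxa10 at 5.46 and 0.212, and Hoxa11 at 0.113 and 0.0745 FPKM. Hoxa13 was listed at 0 with RA and at 0.180 FPKM with vehicle. The wild-type line stood higher at this end of the cluster, with Hoxa10 at 15.6 and 6.91 FPKM and Hoxa11 at 2.77 and 2.92 FPKM.

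Hoxb genes began from nearly nothing. Hoxb1 was listed at 0 with vehicle and stood at 53.3 FPKM with RA, about 3770 reads. Hoxb2 stood at 64.6 and 0.0319 FPKM, Hoxb6 at 40.02 and 0.0760, and Hoxb8 at 41.5 and 0.0615 FPKM. Hoxb9 was the one Hoxb gene above 1 FPKM with vehicle, at 23.4 with RA and 2.97 FPKM with vehicle, and Hoxb13 stood at 3.29 and 0.0344 FPKM. In the Hoxc cluster Hoxc4 led with 9.28 and 0.0906 FPKM, followed by Hoxc5 with 4.08 FPKM and a listed 0. With RA, Hoxc4 reached 4.63 FPKM in the wild-type line and 1.91 FPKM in the Carm1 shRNA line, both under the scramble value. The 9 Hoxa and 10 Hoxb genes kept rose over the 3 lines, as did both Hoxc genes tested. Hoxc8 and Hoxc9 were not tested there. Whether reads were counted by strand is not given, so a Hox gene and its antisense partner cannot be told apart.

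**Figure D3:**
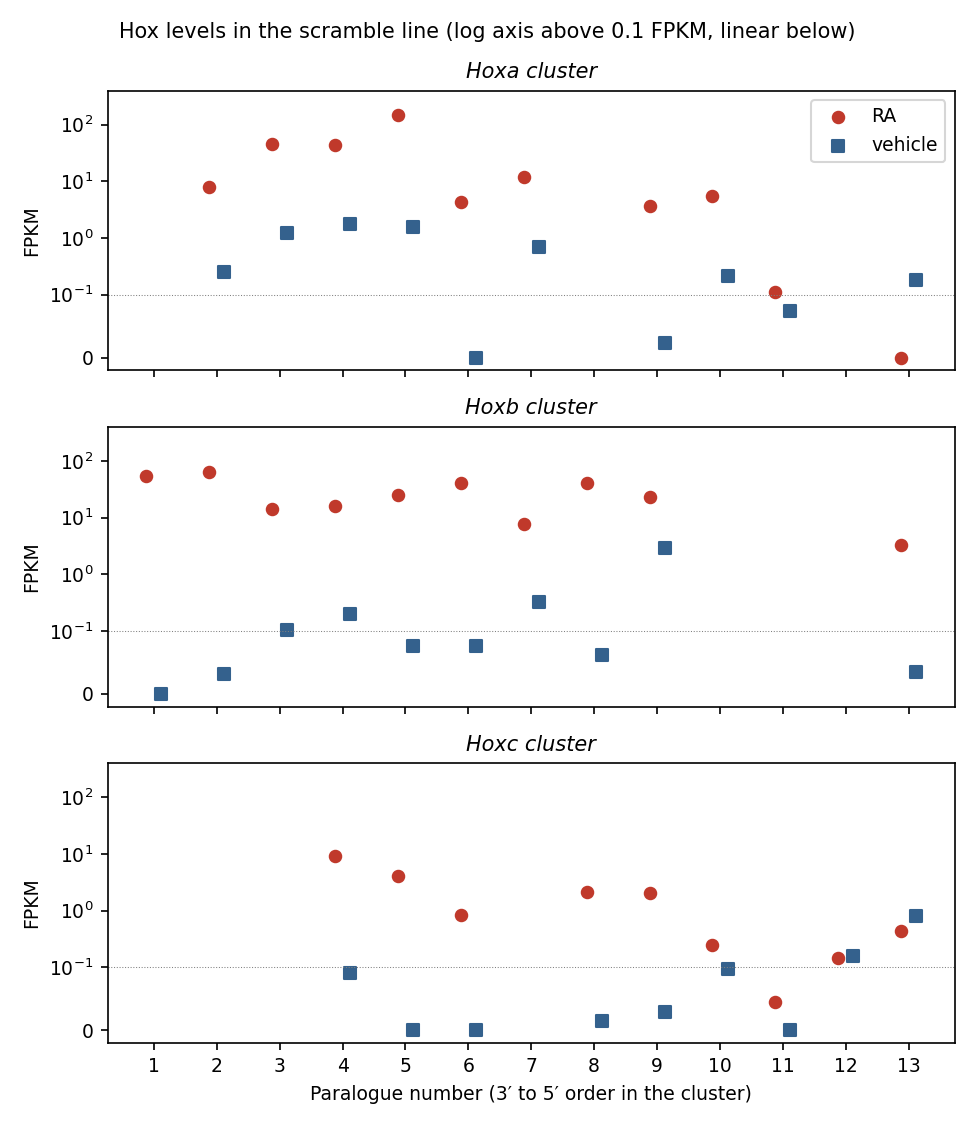
FPKM of Hoxa, Hoxb and Hoxc genes in the RA (red circles) and vehicle (blue squares) libraries of the scramble line by paralogue number, on an axis that is logarithmic above 0.1 FPKM and linear below. RA values lie between 3.29 and 147 FPKM for the Hoxa and Hoxb genes drawn that were kept, and at or under 0.437 FPKM for Hoxa11, Hoxa13 and Hoxc10 to Hoxc13, which, like Hoxc6, were not kept.

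TALE homeodomain proteins are the DNA-binding partners of Hox proteins. Of 11 measured and kept, 6 stood at least 2-fold higher and none at least 2-fold lower, with a median difference of 1.15. Meis1 stood at 11.9 FPKM with RA and 0.201 with vehicle, Meis2 at 17.8 and 0.298, and Pknox2 at 6.17 and 0.277 FPKM. Tgif1, a TALE repressor, stood at 113 and 177 FPKM and fell over the lines (adjusted p = 0.00483). The caudal gene Cdx1, an activator of Hox genes, stood at 61.2 and 10.4 FPKM. Cdx2, Cdx4, Gsx1, Gsx2 and Pdx1 were not kept.

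Pluripotency genes were lower, to unequal degrees. Of 19 core pluripotency genes 18 were kept, 10 stood at least 2-fold lower and none higher, with a median of -1.03, and 14 fell over the lines. Pou5f1, which encodes OCT4, stood at 467 FPKM with RA and 1201 with vehicle, and Sox2, its partner, at 120.3 and 245 FPKM, and both fell. Zfp42 (REX1) stood at 261 and 643 FPKM, Tdgf1, the Nodal co-receptor, at 165 and 474, and Lin28a, which blocks let-7 maturation, at 24.4 and 79.7 FPKM. Nanog was among the members that did not pass the test, with 369.6 and 416 FPKM (adjusted p = 0.602). Dppa2 stood at 75.1 and 76.0 FPKM, and Dppa5a at 1222 and 1944 FPKM.

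The naive pluripotency list, of genes that mark the ground state, was split. Of 18 genes, all kept, 5 stood at least 2-fold lower and 1 higher, with a median of -0.73, and 11 fell while 3 rose over the lines. After median-of-ratios scaling 10 of the 18 stood at least 2-fold lower, with a median of -1.04. Esrrb, an orphan nuclear receptor, stood at 90.9 FPKM with RA and 225 with vehicle, Nr5a2 at 14.4 and 31.7, and Tcl1, an AKT coactivator, at 9.41 and 37.5 FPKM. Klf4 stood at 95.1 and 161 FPKM, against 66.8 and 81.7 for Klf2 and 92.2 and 101 for Tfcp2l1, and neither of these last 2 passed the test. Spp1, osteopontin, Tbx3 and Jam2 were the members that rose, with Spp1 at 575 and 207 FPKM. Formative genes, which mark the next stage of the epiblast, did not move one way: of 11 kept, 2 stood at least 2-fold higher (Sall2 at 19.9 and 3.01 FPKM, Sox4 at 62.7 and 13.7) and 2 lower (Otx2 at 0.201 and 3.21, Fgf15 at 0.789 and 4.86). Fgf5, the standard epiblast marker, stayed at 0.0408 and 0.0174 FPKM.

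FGF signalling through ERK promotes exit from pluripotency, and its ligands, receptors and feedback genes moved in different directions. Of 21 kept, 8 stood at least 2-fold lower and 5 at least 2-fold higher. Among the ligands, Fgf4 stood at 18.6 FPKM with RA and 39.1 with vehicle, Fgf17 at 1.04 and 7.69, and both fell over the lines. Fgf4 did so near the threshold (limma, adjusted p = 0.0437), since it stood at 46.4 and 46.3 FPKM in the Carm1 shRNA line. Among the receptors, Fgfr1 stood at 73.6 and 26.4, Fgfr2 at 8.33 and 0.217, and Fgfr4 at 2.37 and 0.680 FPKM, and these 3 rose. The ERK-dependent feedback inhibitors Spry4 (15.9 and 67.6 FPKM) and Spry2 (25.997 and 72.8 FPKM) fell, as did the ERK-dependent factors Etv4 (41.3 and 86.2 FPKM) and Myc (25.4 and 81.9 FPKM). The phosphatases Dusp4 (9.34 and 1.49 FPKM) and Dusp5 (9.06 and 1.39 FPKM) rose, whereas Dusp6 stood at 56.3 and 55.2 FPKM. Dusp4 lost its call after quantile normalization (adjusted p = 0.0527).

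BMP pathway genes were mostly higher. Of 16 kept, 5 stood at least 2-fold higher and 1 lower, with a median of 0.89, and 12 rose while 2 fell over the lines. The ligand Bmp4 was the member at least 2-fold lower (7.74 FPKM with RA, 32.9 with vehicle). The target Id2 stood at 123 and 14.3 FPKM, the inhibitory Smad6 at 7.71 and 0.565, and the homeobox targets Msx1 and Msx2 at 3.98 and a listed 0, and at 12.04 and 1.82 FPKM. Bmp4 and these targets therefore stood on opposite sides. Id3 stood at 60.6 and 18.4 FPKM but did not pass the test over the lines (adjusted p = 0.0684).

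Of 12 Nodal pathway genes kept, 2 stood at least 2-fold higher (16.7%, beside 11.8% of all genes kept) and 1 lower. Nodal itself stood at 36.3 FPKM with RA and 38.1 with vehicle. Its antagonists differed from each other, Lefty1 at 79.1 and 39.3 FPKM and Lefty2 at 26.4 and 52.9 FPKM, and these rose and fell over the lines (adjusted p = 0.00783 and 0.00156). In the WNT list 12 of 29 genes were kept, 4 of them at least 2-fold higher and none lower. The receptor Fzd2 stood at 17.3 and 0.391 FPKM and the secreted antagonist Sfrp5 at 22.0 and 1.45, while the pathway target Axin2 stood at 1.11 and 1.94 FPKM. In the LIF list 3 of 11 stood at least 2-fold higher and 1 lower: the receptor Lifr stood at 6.65 and 15.7 FPKM and fell, Jak2 stood at 6.96 and 1.43 and rose, and Socs3, a STAT3 target, stood at 43.4 and 42.4 FPKM.

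Genes of primitive and parietal endoderm were higher with RA. Of 13 endoderm transcription factors 7 were kept, of which 5 stood at least 2-fold higher and none lower. Gata6 stood at 8.55 FPKM with RA and 0.623 with vehicle, Foxa1 at 5.81 and 0.249, and Foxq1 at 4.52 and 0.329 FPKM. Sox17 (0.649 and 0.0152 FPKM), Foxa2 (1.30 and 0.0880 FPKM) and Hnf4a (1.60 and 0.0416 FPKM) were under the filter. Of the 17 genes of parietal endoderm and basement membrane that were kept, 8 stood at least 2-fold higher and none lower, and 13 rose over the lines. Serpinh1, the collagen chaperone, stood at 201 and 23.0 FPKM, Col4a1 at 69.2 and 11.7, Col4a2 at 33.3 and 4.27, and Plat, tissue plasminogen activator, at 13.4 and 0.206 FPKM. Of 12 visceral endoderm markers 3 were kept. Rbp4 and Lrp2 rose over the lines, whereas Apoe fell (limma, adjusted p = 0.00293), at 26.3 FPKM with RA and 49.3 with vehicle in the scramble line. Afp and Ttr were listed at 0 in both scramble libraries.

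Mesoderm and neural genes gave no common direction. Only 3 of 16 mesendoderm and mesoderm genes were kept, and T (Brachyury) stayed at 0.154 FPKM with RA and 0.0206 with vehicle. Meox1, a homeobox gene of somites, stood at 3.99 and 0.570 FPKM and rose. Of 27 neural genes 12 were kept, 5 at least 2-fold higher and 1 lower, or 4 and 3 under median-of-ratios scaling, and 3 and 2 when quantile-normalized. Gap43, a growth cone protein, stood at 127 and 26.7 FPKM, Irx3 at 7.49 and 0.0424, Nes at 7.45 and 1.55, and Pax6 at 2.60 and 0.298 FPKM, and these rose. The neuronal genes Tubb3 (72.0 and 108 FPKM), Stmn2 (104 and 179.5 FPKM) and Elavl3 (2.96 and 5.68 FPKM) fell, and Neurog2 was listed at 0 in both scramble libraries. Of the 11 neural genes tested, 6 rose and 3 fell. Among neural crest genes 4 of 12 were kept, 3 at least 2-fold higher and 1 lower, or 2 and 1 when quantile-normalized. The higher ones were Snai1 (5.001 and 1.05 FPKM), Msx1 and Msx2, and the lower one was Foxd3.

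Germ cell and meiosis genes included more than Stra8. Of 21 listed, 15 were kept, 6 stood at least 2-fold higher and none lower, and 13 rose while 1 fell over the lines. Rec8, the meiotic cohesin, stood at 44.6 FPKM with RA and 3.85 with vehicle, Taf7l at 3.02 and 0.451, Tex19.1 at 14.7 and 5.86, and Mael at 11.1 and 3.79 FPKM. Other meiotic genes were low: Sycp3 stood at 3.57 and 2.16 FPKM, Sycp2 at 0.250 and 0.0674, and Spo11 was listed at 0 in both. After quantile normalization 2 members stood at least 2-fold higher.

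Markers of cells that the cultures might also hold were measured beside these genes. The 10 fibroblast or feeder markers summed to 19.5 FPKM with RA and 2.82 FPKM with vehicle, Pdgfrb giving 11.9 and 1.06 FPKM and Col1a2 3.75 and 0.00790. Lum and Postn were listed at 0 in both scramble libraries. The 8 trophoblast markers summed to 45.1 and 11.8 FPKM, with Krt8 at 23.4 and 3.90 and Krt18 at 11.9 and 1.33 FPKM, and Elf5 at 0 in both. The 5 two-cell-like markers in the table summed to 1.19 and 0.109 FPKM. The fibroblast sum was 10.4 FPKM with RA and 3.50 with vehicle in the wild-type line, and 18.2 and 2.54 in the one with the Carm1 shRNA. Not every marker was higher with RA. In the scramble line the fibroblast marker Thy1 stood at 0.752 FPKM with RA and 1.43 with vehicle, and it fell over the lines. The trophoblast marker Eomes stood at 1.68 and 2.61 FPKM in the scramble line. The sums moved with RA as the matrix and keratin genes did, and their part in those results was not tested.

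Matrix, axon guidance and junction genes were counted as separate lists. Of 27 collagens, laminins and integrins kept among 86, 11 stood at least 2-fold higher (7 after quantile normalization) and 1 lower, with a median of 0.86, and 21 rose over the lines. Col9a2 stood at 15.9 FPKM with RA and 2.65 with vehicle, Lama1 at 23.7 and 7.14, and Itgav at 11.0 and 4.53 FPKM, whereas Itgb7 stood at 2.86 and 8.53 FPKM. In the axon guidance families, 12 of 37 kept stood at least 2-fold higher and 1 lower, and 23 rose while 5 fell, against 16 and 7 after quantile normalization, where the median of 0.65 became 0.18. Plxna2, a semaphorin receptor, stood at 18.2 and 0.847 FPKM, Efnb1 at 25.4 and 2.66, Sema4c at 17.2 and 1.54, and Unc5b, a netrin receptor, at 15.2 and 1.33 FPKM. Junction genes were mixed, with 4 of 18 at least 2-fold higher and 1 lower. The desmosomal Dsp stood at 33.2 and 1.92 FPKM and Cdh2 (N-cadherin) at 8.61 and 1.11, while Cdh1 (E-cadherin) stood at 130.3 and 80.5 FPKM and rose as well.

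Lysosomal and autophagy genes were also on the higher side. Of 64 kept, 17 stood at least 2-fold higher and 1 lower, 57 lay above 0, and 45 rose while 6 fell over the lines. The median was 0.53 in the scramble line, 0.25 in the wild-type line and 0.46 in the Carm1 shRNA line. The protease Ctsb stood at 73.7 FPKM with RA and 15.2 with vehicle, Psap, the saposin precursor, at 182 and 69.4, the membrane protein Lamp2 at 29.8 and 9.78, and the autophagy receptor Sqstm1 at 114 and 42.3 FPKM. Tfeb, a transcription factor of lysosomal genes, was the member at least 2-fold lower, at 4.95 and 11.8 FPKM. After median-of-ratios scaling 6 of the 64 stood at least 2-fold higher, 28 rose and 8 fell. Cholesterol synthesis genes were higher by less: 21 of 22 lay above 0 and 18 rose, though 3 stood at least 2-fold higher, among them Tm7sf2 (14.4 and 5.86 FPKM). After median-of-ratios scaling 9 of the 22 rose.

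Imprinted genes, of which 16 of 20 were kept, stood at least 2-fold higher in 8 cases (5 after median-of-ratios scaling) and lower in 1. Peg10 stood at 403 FPKM with RA and 91.0 with vehicle, Dlk1, a Notch ligand homologue, at 28.0 and 0.484, Nnat at 73.2 and 10.6, and Sgce at 21.0 and 2.13 FPKM. The member at least 2-fold lower was Phlda2, which restrains placental growth (3.64 and 19.4 FPKM). Igf2 was under the filter in the scramble line, at 0.747 and 0.0652 FPKM.

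Genes of growth and protein synthesis were lower, mostly by less than 2-fold as deposited. All 25 ribosome biogenesis genes lay below 0 with RA in the scramble line and fell over the lines, also under both scalings, although 1 of them stood at least 2-fold lower as deposited and 13 after median-of-ratios scaling. Npm1 (nucleophosmin) stood at 1594 FPKM with RA and 2737 with vehicle, Ncl (nucleolin) at 353 and 619.8, and Nolc1 at 54.8 and 119 FPKM. Their median was -0.73, against -1.05 after median-of-ratios scaling. Of 83 cytosolic ribosomal proteins kept, 78 lay below 0 with a median of -0.27, and 59 fell, but after quantile normalization the median was 0.00 and 10 fell. These proteins held 20.9% of all FPKM with RA and 23.6% with vehicle. All kept genes above 100 FPKM in the wild-type vehicle library had a median of -0.24, near the -0.27 of these proteins. Whether the lists of this paragraph go beyond that trend with level was not tested. Mitochondrial ribosomal proteins had a median of -0.37 (47 of 76 fell) and aminoacyl-tRNA synthetases -0.33 (16 of 20 fell), and none in either list reached 2-fold as deposited.

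Replication genes followed: 36 of 39 lay below 0, with a median of -0.37, and 27 fell over the lines. Mcm10 stood at 23.9 FPKM with RA and 45.8 with vehicle, and Pcna at 325 and 525 FPKM. Rpa1, a subunit of the single-strand binding complex, was the exception, at 350.1 and 157 FPKM, and rose, while its partner Rpa2 stood at 62.6 and 93.5 FPKM and fell. Of 15 genes of the G1 machinery kept, 4 stood at least 2-fold lower and none higher. Ccnd1 (cyclin D1) stood at 29.6 and 74.1 FPKM and Ccne1 (cyclin E1) at 45.6 and 119, whereas Cdkn1b, the inhibitor p27, stood at 52.6 and 29.7 FPKM and rose. In the Myc network, Mycn stood at 5.88 and 25.1 FPKM and fell, as Myc did, and Mxd4, an antagonist of MYC, stood at 15.9 and 1.92 FPKM and rose. Among 17 genes of threonine, serine and glycine metabolism 2 stood at least 2-fold lower, Tdh and Shmt1 (45.5 and 99.0 FPKM), or 4 after median-of-ratios scaling, and 12 fell.

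Chromatin regulators were divided. Of 31 Polycomb subunits 6 stood at least 2-fold higher and 2 lower, or 3 and 2 after quantile normalization. Within the CBX family Cbx7, the main form of embryonic stem cells, stood at 14.5 FPKM with RA and 40.5 with vehicle and fell, while Cbx8 (4.16 and 0.458 FPKM) rose. Bmi1 stood at 7.21 and 1.62 FPKM and rose, and Eed, a core subunit of PRC2, stood at 56.2 and 117 FPKM and fell. In the DNA methylation list Tet1, a methylcytosine dioxygenase, stood at 12.8 and 53.1 FPKM and Dnmt3l at 3.58 and 8.15, and both fell, while Mbd2 rose (20.3 and 8.24 FPKM). Among the relatives of Carm1, Prmt2 stood at 15.3 and 4.38 FPKM and was the 1 of 10 at least 2-fold higher, and Prmt5 stood at 74.2 and 118 FPKM and fell. Of 17 nuclear receptor coregulators kept, 2 stood at least 2-fold higher, Nrip1 among them, a share of 11.8% that equals that of all genes kept.

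The remaining lists were counted in the same way, beside 11.8% higher and 1.87% lower among all genes kept. Chaperones (13.7% higher), histones (12.5%) and forkhead genes (10.5%) lay near the share of all genes. Solute carriers had 31 of 200 at least 2-fold higher and 6 lower, led by Slc35g2 (16.5 and 0.600 FPKM). Zfp zinc finger genes had 13 of 309 higher and 6 lower, with a median of 0.19 that median-of-ratios scaling turned to -0.06 and quantile normalization to -0.21. Homeobox genes outside the Hox clusters had 11 of 36 higher and 6 lower, and their median of 0.38 was -0.07 after quantile normalization. Rab and sorting genes had 8 of 102 higher and 1 lower, kinesins 6 of 33 and 0, chaperones 10 of 73 and 2, glycolysis and hypoxia genes 4 of 27 and 1, metallothioneins and zinc transporters 1 of 14 and 1, histones 2 of 16 and 1, and forkhead genes 2 of 19 and 1. Fewer stood at least 2-fold higher once the libraries were rescaled, giving first the median-of-ratios count and then the quantile count: 20 and 15 solute carriers, 4 and 2 Rab and sorting genes, 2 and 1 kinesins, 5 and 3 chaperones, and 2 and 2 glycolysis and hypoxia genes, of which 6 and 2 stood at least 2-fold lower. Homeobox genes then had 9 and 7 higher, Zfp genes 8 and 4, with 12 and 11 lower. None of the 87 respiratory chain genes or 63 splicing factors reached 2-fold. The proteasome (41 kept) and the p53 targets (19 kept) had 1 member each at least 2-fold lower and none higher. Mt2, a metallothionein, stood at 64.2 and 212 FPKM and fell.

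**Figure D4:**
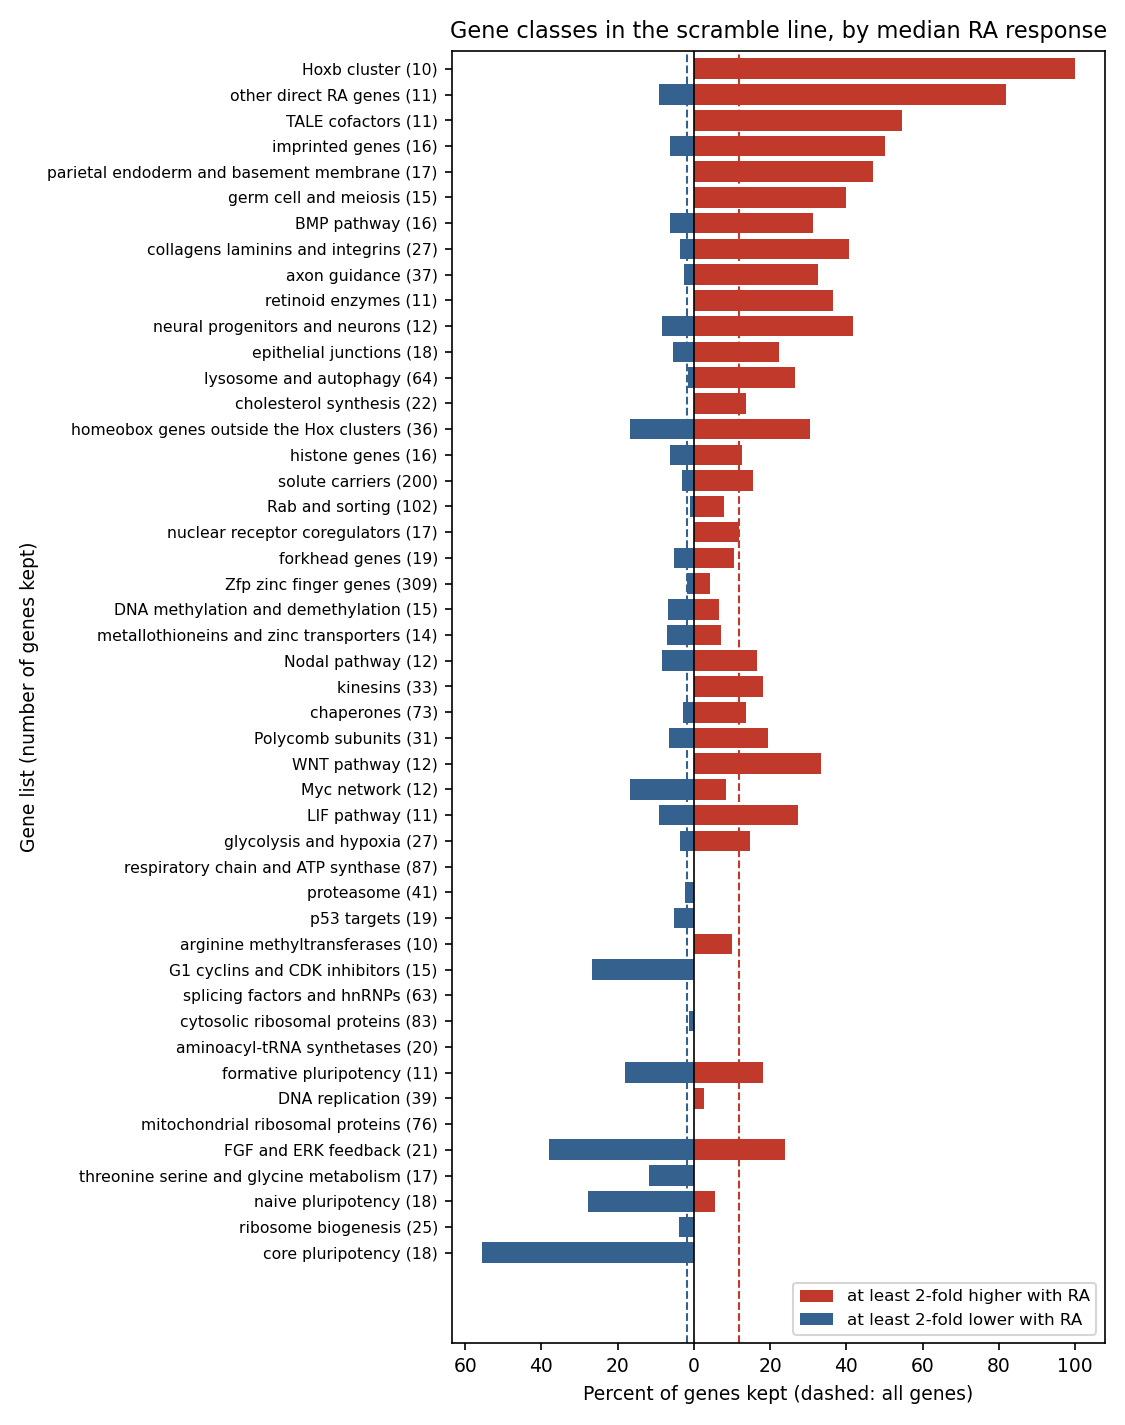
Percent of the genes kept in each list with at least 10 kept that stood at least 2-fold higher (red, right of 0) or lower (blue, left of 0) with RA in the scramble line, ordered by median difference, with dashed lines at 11.8% and 1.87% for all genes kept. Hoxb (100%) tops the higher side and core pluripotency (55.6%) the lower side.

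In absolute amounts, the largest gains were those of abundant RNAs. Mdk, the growth factor midkine, gained most and stood at 1152 FPKM with RA and 310.1 with vehicle, and Stra8 came next. Ywhaq, a 14-3-3 protein, stood at 744 and 332 FPKM, Cotl1, an actin-binding protein, at 533 and 142, and Spp1 and Peg10 also belonged to the 8 largest. Tpt1 (2839 and 2354 FPKM) and the elongation factor Eef1a1 (6541 and 6124 FPKM) were in this group through their level, with differences of 0.27 and 0.09, and Eef1a1 did not pass the test and turned to -0.19 over the lines after median-of-ratios scaling. The largest losses were Ptma (2191 and 3466 FPKM), Npm1, Rplp1, Pou5f1, Dppa5a, the histone variant H2afz (632 and 1333 FPKM), the chaperone Hspa8 (2018 and 2706 FPKM) and Rpl7. Just inside the 2-fold limit on the higher side lay Reep2 (5.63 and 2.32 FPKM), Me1 (31.6 and 15.3 FPKM) and Sdcbp (52.2 and 25.6 FPKM), and just outside it Gpcpd1 (13.3 and 6.18 FPKM), Fam102a (18.5 and 8.75 FPKM) and Ildr1 (25.9 and 12.5 FPKM). On the lower side Tmem179 (2.06 and 5.13 FPKM), Anp32a (63.7 and 129 FPKM) and Rhebl1 (11.2 and 23.7 FPKM) lay inside, and Wdr74 (46.8 and 94.7 FPKM), Klf16 (14.95 and 30.9 FPKM) and Hmga1 (63.4 and 128 FPKM) outside. The limit thus separated genes with nearly equal differences.

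The scramble line had more 2-fold genes than the other lines, over the same 11263 genes. It was taken up with that count already known, so its rank is no test. The 11263 genes were also filtered on the scramble libraries alone, which favours genes high there, so the counts and shares below are descriptions. Against the 1326 higher and 211 lower genes of the scramble line stood 1075 (9.54%) and 196 (1.74%) in the Carm1 shRNA line, and 703 (6.24%) and 136 (1.21%) in the wild-type line. After median-of-ratios scaling the counts were 852 and 481 in the scramble line, 825 and 356 in the Carm1 shRNA line, and 521 and 243 in the wild-type line. After quantile normalization the scramble line no longer had the most higher genes, with 661 against 416 in the wild-type line and 663 in the Carm1 shRNA line. Its lower genes stayed the most numerous there, 440 against 257 and 388. Of the 1326 higher genes, 589 were also at least 2-fold higher in both other lines and 311 in neither, and 303 of those 311 lay above 0 in both. The shared genes made up 49.3% of the scramble and 93.0% of the wild-type calls, and 71.6% of the scramble and 88.4% of the Carm1 shRNA calls. Of the 211 lower genes, 89 were at least 2-fold lower in both other lines and 51 in neither, 50 of which lay below 0 in both.

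Gene by gene the responses followed one another, with an unequal size. Across the 11263 genes, which are not independent replicates, the scramble response correlated with the wild-type response at r = 0.919 and with the Carm1 shRNA response at r = 0.943, and the slope of the scramble response was 1.15 on the wild-type and 0.989 on the Carm1 shRNA response. The median over the 1326 higher genes was 1.40 in the scramble line, 0.99 in the wild-type line and 1.28 in the Carm1 shRNA line, but these genes were picked by their scramble values. The difference itself was tested gene by gene as the interaction of treatment with the scramble line (limma, 1 residual degree of freedom). It called 0 of 11227 genes, with 345 at an unadjusted p under 0.05, and the smallest adjusted p was 0.999. At that residual the design can show little, and a call missed here does not show equal responses.

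**Figure D5:**
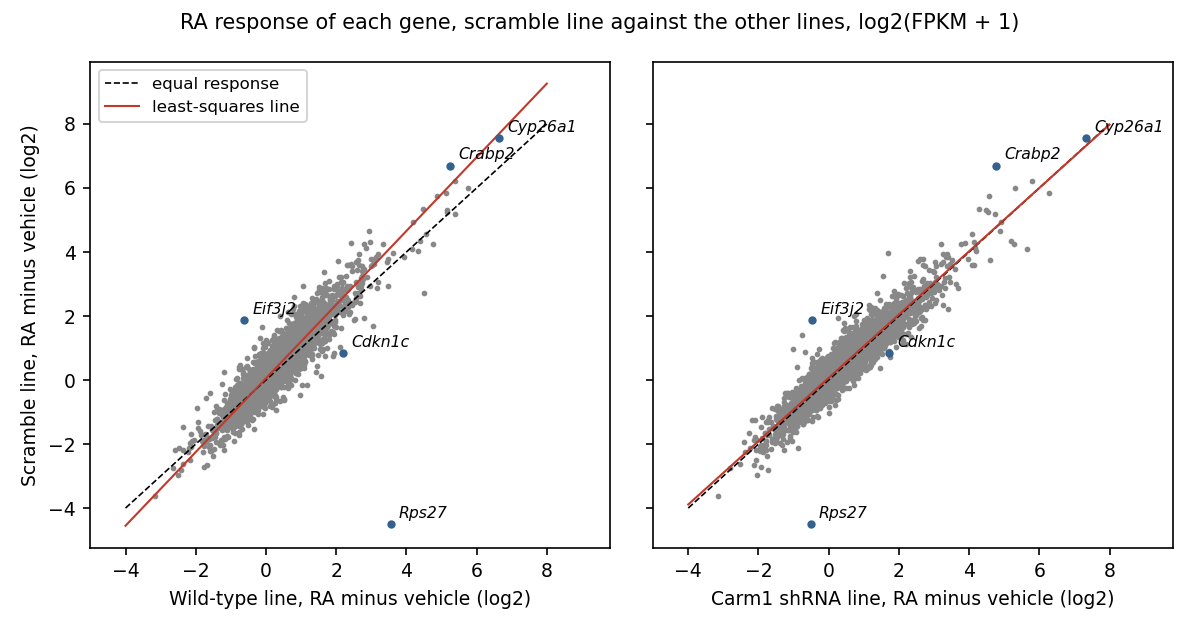
RA minus vehicle in log2(FPKM + 1) of each of the 11263 genes in the scramble line (vertical) against the wild-type line (left panel) and the Carm1 shRNA line (right panel), with the line of equal response (dashed) and the least-squares line (red). The red line is steeper than equality against the wild-type line (slope 1.15) and lies on it against the Carm1 shRNA line (0.989), and Rps27 lies far from both.

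The genes whose scramble response stood farthest above both other lines included 2 of the retinoid and WNT lists. Crabp2 differed by 6.70 in the scramble line, 5.24 in the wild-type line and 4.78 in the Carm1 shRNA line, reaching 297, 126 and 69.6 FPKM with RA. The interaction put the gap at 1.69 ± 0.24 (SE, adjusted p = 0.999). Fzd2 differed by 3.71, 2.07 and 2.54 in the same order of lines, Ednrb, an endothelin receptor, by 2.73, 1.46 and 1.38, and Pth1r, the receptor of parathyroid hormone, by 2.23, 1.14 and 1.16. Dusp4 differed by 2.05, 0.73 and 0.79, and its wild-type vehicle level was already 5.74 FPKM, against 1.49 FPKM in the scramble line. Shisa3, with 1.99, 0.91 and 0.73, was not tested.

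Eif3j2 and Snurf had the opposite sign in the scramble line. Snurf differed by 0.40 there, -0.56 in the wild-type line and -0.92 in the Carm1 shRNA line. Eif3j2, a paralogue of the initiation factor subunit Eif3j1, stood at 5.26 FPKM with RA and 0.708 with vehicle in the scramble line, against 5.58 and 8.18 in the Carm1 shRNA line, and 2.51 and 4.42 in the wild-type line. It shares sequence with Eif3j1, and Snurf shares its transcript with Snrpn, so both values are uncertain. Over the 3 lines Eif3j2 gave 0.26 ± 0.51 (SE, adjusted p = 0.674), and -0.55 (adjusted p = 0.0175) without the scramble line.

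Farthest below both other lines, after Rps27, were Nptx2, a neuronal pentraxin, and Cdkn1c, the imprinted inhibitor p57. Nptx2 differed by -2.18 in the scramble line, -1.19 in the wild-type line and -1.26 in the Carm1 shRNA line. Cdkn1c stood at 4.48 FPKM with RA and 2.08 with vehicle in the scramble line, against 15.6 and 4.04 in the Carm1 shRNA line and 24.9 and 4.62 in the wild-type line. Its rise was thus present in every line and smallest in the scramble line. Notch4 differed by -2.03, -1.32 and -1.32, and Pou4f2 by -2.71, -1.75 and -1.92. Steap1, Saa3 and Ube2dnl1 were lower with RA in the scramble line (-0.64, -0.15 and -0.84) and higher in the other lines (0.12 and 0.06, 0.62 and 0.72, 0.18 and 0.01), and none of these 3 passed the 3-line test. The adjusted p of the interaction was 0.999 for each of these genes that was tested.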

How the data were processed

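RNA of J1 mouse embryonic stem cells was sequenced as single-end 51 nt reads in 6 libraries (3 lines, RA or vehicle). TopHat2 and Cufflinks are named in the submitters' processing notes, with build mm9 and no version, and the authors deposited 1 FPKM value per gene and library. These values hold no read counts, so no count model was used and depth was estimated from the step between low FPKM values, which limits precision most for genes near 0.

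The members and the 60 gene lists were chosen with earlier results of these data known, and some lists share genes. Of 20793 rows, 2 marked as failed were dropped, and of rows with one symbol that with the highest mean was used, leaving 20460 genes. A gene was kept where its scramble libraries averaged 1 FPKM or more, and 1 FPKM was added before log2. Genes were named by size: the 15 largest differences in each direction, the 8 largest gains and losses in FPKM, the 8 highest with RA among those at or under 0.1 FPKM with vehicle, the 8 farthest above or below both other lines, and the 3 on each side of the 2-fold limit. Members of lists were chosen for description after their values were seen, and some named by these rules are not reported here. The response over the 3 lines and its interaction with the scramble line were fitted with limma 3.58.1 in R 4.3.3, p-values being adjusted by Benjamini-Hochberg over all genes tested, and the scripts were tested on simulated data. With 1 library per line and treatment, p-values can reflect no more than the spread among the 6 libraries, and the line stands as the block. Alternatives changed the filter, the pseudocount, the scaling, the limma trend and the lines included. Promoters were RefSeq sequences of build GRCm38.p6, matched by symbol for 8528 kept genes.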

Additional observations from a re-analysis of the deposited data

Results flagged for a closer look

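Rps27 moved in opposite directions in 2 lines under the same treatment: its log2(FPKM + 1) difference was -4.51 in the scramble line and 3.55 in the wild-type line. The contrast between these 2 lines alone was not tested. The interaction of treatment with the scramble line, set against both other lines, had an adjusted p of 0.999 (limma).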

How the results depend on the processing

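The scramble line kept more higher than lower genes under every setting tried. Its counts of 1326 higher and 211 lower genes became 712 higher at a mean of at least 5 FPKM, 852 and 481 after median-of-ratios scaling, and 661 and 440 after quantile normalization. The counts of the 3-line test stayed within 1.5 times, from 4795 genes without the scramble line to 7426 after median-of-ratios scaling, against 7141. The interaction called 0 genes in each of 7 settings, with 240 to 1593 at an unadjusted p under 0.05. For named genes the 3-line value kept its direction and side of the threshold in 601 cases, lost the call in 22, gained it in 6 and reversed in 2: Eef1a1 (-0.19 after median-of-ratios scaling) and Eif3j2 (-0.55 without the scramble line). Without a filter on low values Pou5f1, Fzd2, Dusp4, Ednrb, Cdkn1c, Pth1r and Nptx2 were among those that lost it. After quantile normalization Dusp4, Hspa8, Rpl7 and Rplp1 (adjusted p = 1.0) did, and Rplp1 also lost it without each line in turn (adjusted p 0.0565 to 0.107).

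List medians set against the median of all genes reversed in 20 cases. Without a filter these were Nodal (0.0704), WNT (0.143), visceral endoderm (-0.0344), mesendoderm (0.0545), DNA methylation (0.128), Polycomb (0.0307), Myc network (0.0087), metallothioneins (0.0723), chaperones (0.0458) and histones (-0.0048). After quantile normalization they were WNT (0.0097), glycolysis (0.0843), cytosolic ribosomal proteins (0.0511), respiratory chain (0.0726), proteasome (0.0213), chaperones (0.0168), Zfp genes (-0.16), forkhead genes (-0.0525) and other homeobox genes (-0.0230), the last also at a mean of at least 5 FPKM (-0.28). The causes were not tested. The 3-line fit pairs RA with vehicle within each line, and the labels give no replicate numbers for any other pairing.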
